A study of Magallana angulata with 3 samples.

Results

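In adductor muscle of the Fujian oyster (Magallana angulata), 98 of 28027 gene identifiers were strongly lower in the diploid library DM than in the diploid library DF and the triploid library T, while DF and T were close to each other. The 98 genes were chosen by their own values in these libraries, which are given as RPKM (reads divided by the gene's length and by the library's total). A gene was taken when its mean over the 3 libraries was at least 10 and under 1000 RPKM, when its level in DM, as log2(RPKM + 1), was at least 2 below DF and at least 2 below T, and when DF and T were less than 1 apart. A difference of 2 on this scale is at least 4-fold in RPKM. Of the 28027 identifiers, 6046 had a mean in this range, and the 98 genes are 1.62% of them. Because the same values chose the genes, their lower level in DM is a description of the choice and carries no test.

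The series holds a pair of diploid libraries, DM and DF, and a triploid library, T. The diploid animals were offspring of diploid crosses, per the labels' protocols. The triploids had the same parents, and a chemical treatment kept the second polar body in the egg. All animals lived for 1 year with equal temperature and food. Neither the meaning of F and M nor the number of animals pooled in a library is given in the labels. Each label has 1 library, so no difference below has a replicate check, and what sets DM apart from DF cannot be told apart from differences between animals or between library preparations.

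The adductor muscle closes the oyster shell and holds it shut for long periods at little energy cost, a property of its smooth part, while its striated part closes the shell quickly. Its commonest messenger RNAs usually encode contractile proteins, such as actin, myosin and the paramyosin of molluscan catch muscle. In RPKM the levels of all genes share 1 total, so a library in which a few such transcripts take more of the reads lists its other genes lower. The files pair the identifiers with no names, and 0 of the 28027 could be matched in a RefSeq gene table of the species. No function, sequence or marker of a cell type can therefore be attached to the 98 genes here, and the labelled tissue could not be checked against muscle markers. In muscle tissue, fewer cells of a type and less RNA per cell cannot be told apart.

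The total of reads per library was 2057805 in DM, 1805591 in DF and 2137859 in T. These totals, and the reads of each gene, were recovered from the spacing of the RPKM values. The most abundant gene, CGI_10018876, took 33.8% of the reads in DM, 17.6% in DF and 23.9% in T. Over the 6046 genes of the abundance range, the median difference was -0.68 for DM minus DF and -0.44 for DM minus T on the log2(RPKM + 1) scale. With equal sums of RPKM, the 20 most abundant genes left out, these medians were -0.20 and -0.11. Most genes were thus listed lower in DM as deposited, and the 98 genes lie in the lower tail of that shift.

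The 98 genes together held 1465 reads in DM, 9520 in DF and 9060 in T. This was 0.0712% of the reads in DM, 0.527% in DF and 0.424% in T. As a share of the library, DM was 7.41-fold below DF (95% exact counting interval 7.01 to 7.83) and 5.95-fold below T (5.63 to 6.29). Without the most abundant of the 98 genes these folds were 7.55 and 6.11. These intervals hold counting error and no difference between animals. The genes were chosen for low DM values in these same reads. The choice tilts the folds upwards, and the intervals do not allow for it.

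Single genes ranged from 0 to 227 RPKM in DM, from 11.9 to 1449 in DF and from 11.6 to 1109 in T, with medians of 3.77 in DM, 29.0 in DF and 26.8 in T. Over all genes of the abundance range the medians were 18.7 RPKM in DM, 33.2 in DF and 27.0 in T. In DF and T the medians of the 98 genes were thus near those of the range, which includes the 98. Genes this low in DM reach a mean of 10 RPKM through DF and T, so the choice bears on these levels. The difference DM minus DF ran from -4.76 to -2.04 with a median of -2.72, and DM minus T from -5.11 to -2.02 with a median of -2.41. In the 93 genes with reads in DM, the fold in RPKM was between 4.33 and 25.1 below DF (median 7.52), and between 4.36 and 20.2 below T (median 6.58).

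**Figure D1:**
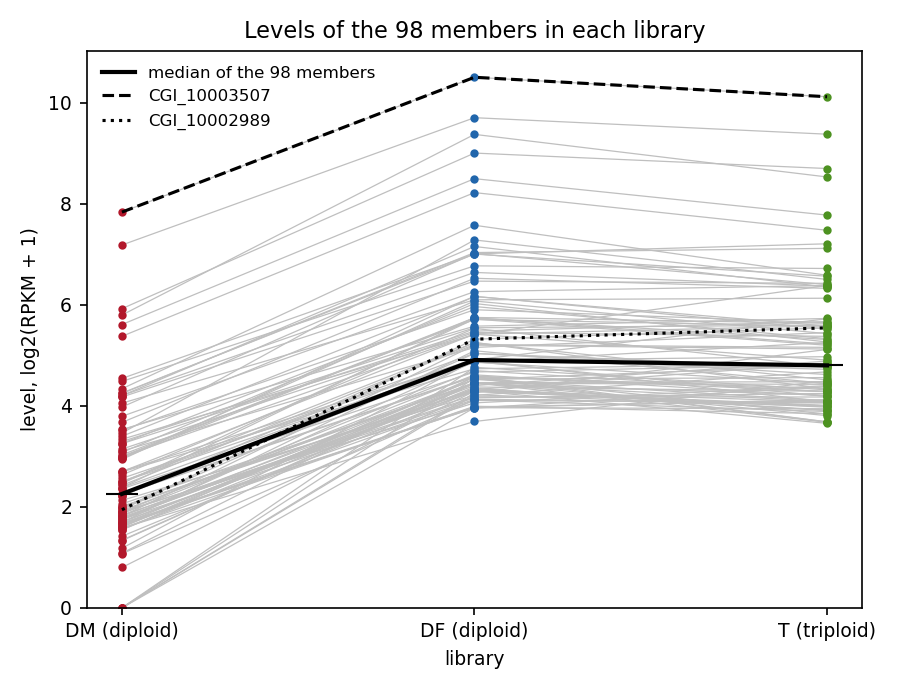
Level of each of the 98 genes, as log2(RPKM + 1), in DM, DF and T; each thin line is a gene, the thick line joins the medians, and the broken lines are the genes named by rule. All lines are lowest in DM, as the choice of genes requires, and the genes spread from 0 to 227 RPKM there, while DF and T have medians of 29.0 and 26.8 RPKM.

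The most abundant of the 98 genes was CGI_10003507, with 227 RPKM in DM (185 reads), 1449 in DF (1036 reads) and 1109 in T (939 reads). Its recovered coding length was 396 nt. It was 6.38-fold lower in DM than in DF (95% exact counting interval 5.45 to 7.50) and 4.89-fold lower than in T (4.17 to 5.75). The gene was thus abundant in DM too, while it lay below both other libraries. Of the genes with at least 1 read in DM, CGI_10002989 had the largest difference from the nearer library. It had 2.84 RPKM in DM (3 reads), 38.9 in DF (36 reads) and 45.6 in T (50 reads). Its level was 13.7-fold lower than in DF (4.32 to 69.4) and 16.04-fold lower than in T (5.18 to 80.4), so its 3 reads leave the size of the difference wide.

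Abundance differed widely among the 98 genes. Between 10 and 20 RPKM on average there were 50 of them, between 20 and 50 there were 29, between 50 and 100 there were 12, and at 100 or more there were 7. These are 2.27%, 1.398%, 1.38% and 0.785% of all genes with such means. The share of genes that met the rule was therefore lower among abundant genes. The median difference DM minus DF moved little over these classes, at -2.62, -2.72, -2.61 and -2.89. The rule holds every member at least 2 below DF, which bounds these medians, so their likeness carries no test. A gene above the range, CGI_10010679, met the rest of the rule and is named after its values were seen. It had 786 RPKM in DM, 5439 in DF and 4122 in T, and it was the only gene to do so of 138 with a mean of 1000 RPKM or more. Below the range, 163 of 8218 genes with a mean between 1 and 10 RPKM met the rest of the rule.

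The reads recovered for the low values in DM were few, and recovered reads above 0 are lower limits. Of the 98 genes, 5 had 0 reads in DM, 23 had 1 to 3, 38 had 4 to 9 and 32 had at least 10. The median was 5 reads in DM, 37 in DF and 43 in T. In 93 of the 98 genes the 95% exact counting interval of the ratio of reads lay under 1 against both DF and T. This was so for 27.9% of the genes in the abundance range. The genes were chosen by the same values, which favours such intervals, so this tally carries no test. The interval lay under 0.5 against both libraries in 75 genes and under 0.25 in 11. In the other 87 genes counting error alone leaves room for a difference under 4-fold from at least 1 of the libraries.

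**Figure D2:**
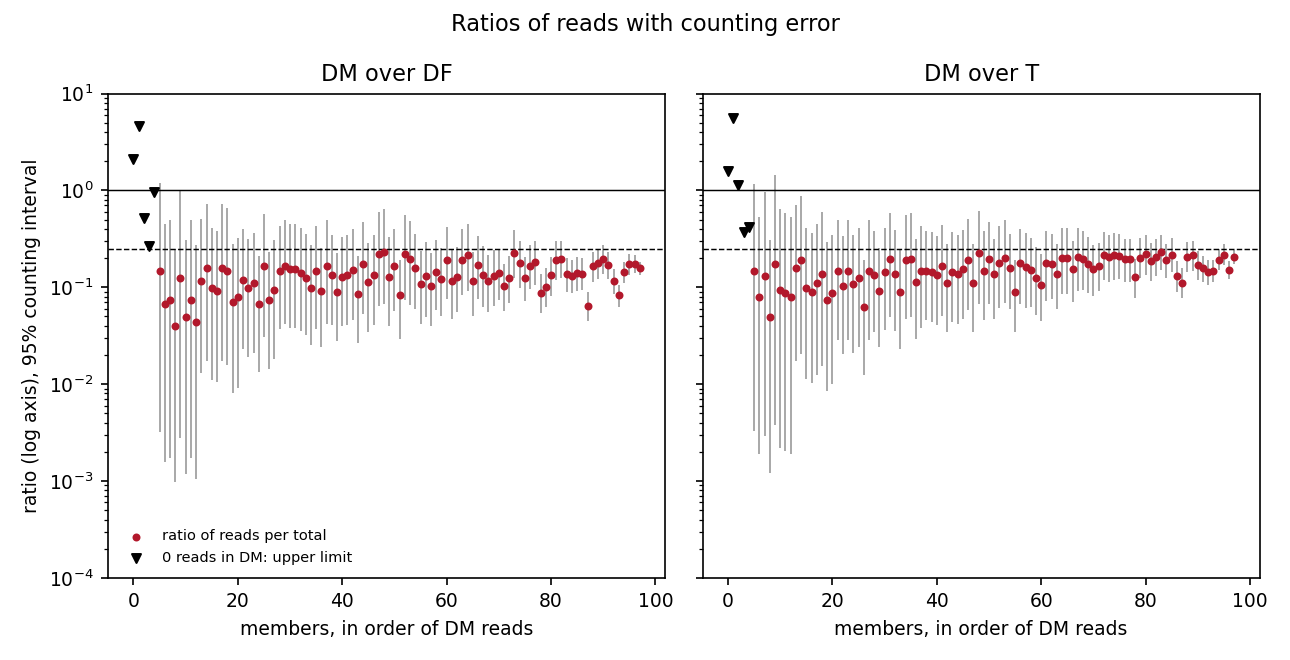
Ratio of reads per total of DM over DF (left) and DM over T (right) on a log axis, for the 98 genes in order of their DM reads; points are ratios, bars are 95% exact counting intervals, triangles are upper limits for genes with 0 reads in DM, and lines mark ratios of 1 (solid) and 0.25 (broken). The intervals narrow as DM reads rise, and in 93 genes they lie under 1 against both libraries, which the choice of genes favours.

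The 5 genes with 0 reads in DM are named after their values were seen. CGI_10000015 had 0 reads in DM, 14 in DF (26.1 RPKM) and 12 in T (18.9 RPKM). Set at a floor of 3 reads, its level in DM was 5.32-fold lower than in DF and 3.85-fold lower than in T. The 95% exact counting interval, which also holds the error of the DF and T reads, allows folds down to 3.78 and 2.67. CGI_10024884 had 0 reads in DM, 5 in DF and 11 in T, and its interval allows folds down to 1.04 from DF and 2.42 from T. CGI_10001415 had 0 reads in DM, 8 in DF and 5 in T, and its interval allows folds down to 1.95 from DF and 0.882 from T. On these recovered reads, which are lower limits, a difference from T was not detectable. CGI_10006530 had 0 reads in DM, 3 in DF and 4 in T, and CGI_10024179 had 0 in DM, 2 in DF and 2 in T. These last genes, of 114 and 63 nt in recovered coding length, reach 14.6 to 17.6 RPKM on 2 to 4 recovered reads. On such reads their absence from DM was not detectable as a difference. Their lengths and reads are lower limits, so whether more reads stood behind these values cannot be told. The interval of the ratio also held 1, against DF or T, in CGI_10001415 and in 2 genes with 1 read in DM, CGI_10000219 and CGI_10003545.

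The 98 genes had a lower median recovered coding length than other genes of the abundance range, though recovered lengths and reads are lower limits. Their recovered coding length had a median of 655.5 nt (quartiles 366 and 1147.5), against 843 nt for the other genes of the range. A lower median was not particular to the 98 genes. By the same rule turned to the other libraries, the 12 genes lower in T alone had a median of 484.5 nt. The 28 genes lower in DF alone had 1017 nt. Of genes under 300 nt 2.77% were among the 98, against 0.679% of genes of 2400 nt or more. Reads moved in the same way. Of genes with under 30 reads in the 3 libraries 3.99% were among the 98, against 2.57% with at least 30 and under 100, 1.03% with at least 100 and under 300, and 1.05% with 300 or more. A gene of the same RPKM has fewer reads when it is short, and the part of length and reads in the choice of the 98 genes was not tested. Above 100 reads, where the share no longer moved with the reads, there were 25 and 17 of the 98 genes.

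DF and T were held to less than 1 apart by the rule, and within that limit T was below DF in 69 of the 98 genes and above it in 29 as deposited. This split turned when the typical gene was set equal between libraries (median-of-ratios or trimmed-mean scaling), with T below DF in 45 genes and above it in 53. With equal sums it was 55 below and 43 above. The difference T minus DF had a median of -0.23 in the 98 genes and of -0.29 over the abundance range as deposited. After median-of-ratios scaling these medians were 0.04 and -0.01. Which of DF and T was the nearer library to DM thus depended on the scaling. When the limit between DF and T was dropped, 147 genes (2.43% of the range) were at least 2 below both libraries in DM. Of the 49 genes added, DF was above T in 41 and T above DF in 8.

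The limit of 2 cut through a continuous range. The members nearest to it had differences from the nearer library of 2.017, 2.020 and 2.028. The nearest genes left out had 1.9975, 1.995 and 1.989. Between 1.8 and 2 there were 38 genes that met the rest of the rule, and 30 of the 98 lay between 2 and 2.2. At 3 or more there were 10 of the 98, of which 5 had reads in DM.

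Each contrast taken alone was met by far more genes, since 11.9% of the range was at least 2 below DF in DM and 5.57% at least 2 below T. The same rule, turned to other libraries and directions, gave the values against which the count of 98 can be read. Genes lower in DF alone numbered 28 (0.463% of the range) and genes lower in T alone 12 (0.198%). Genes higher in DM alone numbered 5 (0.0827%), in DF alone 158 (2.61%) and in T alone 32 (0.529%). On the deposited scale and at this limit, DM was thus the library with the most genes lowered alone and the fewest raised alone. These groups share the same 3 libraries.

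The count of 98 depended on how the libraries were scaled. Median-of-ratios scaling sets the typical gene with a value in every library equal between libraries. It raised DM 1.74-fold relative to DF and 1.42-fold relative to T, and the median difference over the range became 0.08 for DM minus DF and 0.05 for DM minus T. The rule then took 27 genes, of which 23 were among the 98. This is 23.5% of the 98 and 85.2% of the 27. Of the 75 genes no longer taken, 69 had a difference under 2 from DF, T or both. The other 6, of which 4 had 0 reads in DM, no longer met the limit on the mean or on DF against T. Trimmed-mean scaling gave 25 genes and equal sums of RPKM without the 20 most abundant genes gave 39.

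These scalings move DM by less than 1 on the log2 scale, so genes chosen at 2 or more below both libraries stay lowest in DM by construction. After median-of-ratios scaling, the median of the 98 genes was -1.98 for DM minus DF and -1.99 for DM minus T. The counting interval of the ratio, scaled in this way, lay under 1 against both libraries in 85 of the 98 genes and in 8.14% of the range. The choice of the genes by the same values favours such intervals, so this carries no test.

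**Figure D3:**
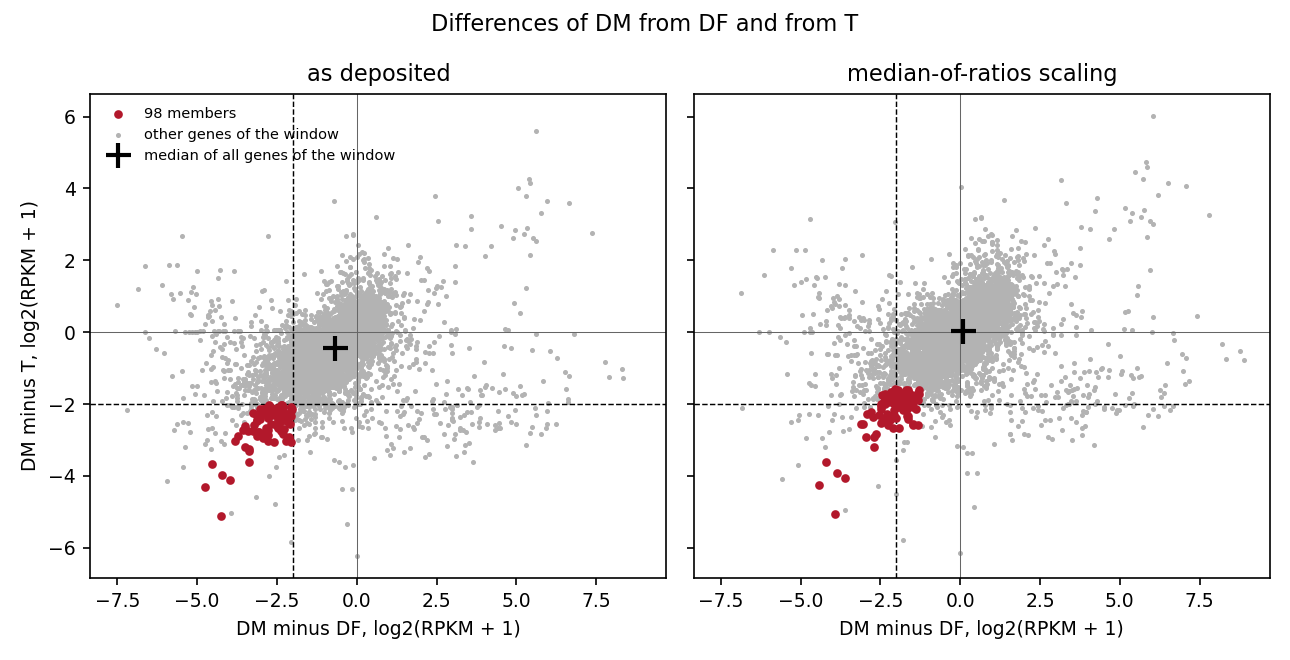
Difference of DM from DF (horizontal) against difference of DM from T (vertical) on the log2(RPKM + 1) scale for the 6046 genes of the abundance range, as deposited (left) and after median-of-ratios scaling (right); broken lines mark -2 and the cross is the median of all 6046 genes. The cross lies at -0.68 and -0.44 as deposited and near 0 after scaling, and many of the 98 genes cross the broken lines with it.

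The mirrored counts moved as well. After median-of-ratios scaling, 27 genes were lower in DM alone, 60 lower in DF alone, 11 lower in T alone and 18 higher in DM alone. Under the other scalings too, fewer genes were lower in DM alone than in DF alone, with 25 against 60 after trimmed-mean scaling and 39 against 49 with equal sums. At the limit of 2, the larger number of genes lowered in DM than in DF therefore held on the deposited scale only, of the 4 scales tried. On that scale it was 720 against 76 at a limit of 1, and turned to 10 against 16 at a limit of 3. At the limit of 2, genes lower in DM alone outnumbered those higher in DM alone on all 4 scales. After trimmed-mean scaling these were 25 against 20, and with equal sums 39 against 13. The limit on the mean does not bear alike on lowered and raised genes, so these counts are not a like comparison.

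**Figure D4:**
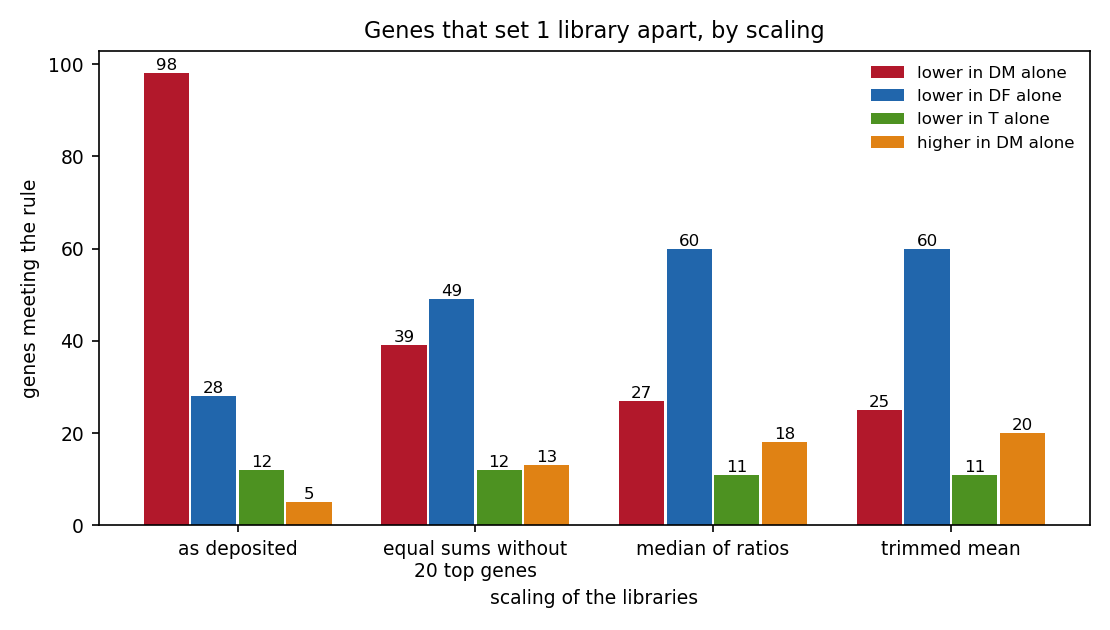
Number of genes that met the rule for 1 library set apart from the other 2, for RPKM as deposited and under 3 scalings; bars are genes lower in DM alone, lower in DF alone, lower in T alone and higher in DM alone. The count for DM was 98 as deposited and 25 to 39 after scaling, while that for DF was 28 as deposited and 49 to 60 after scaling.

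The 23 genes that met the rule on both scales had a median mean of 24.0 RPKM, against 19.9 RPKM for all 98. Of these, 1 had 0 reads in DM, 17 had 1 to 9 and 5 had at least 10. Those 5 rest on the most reads and are named after their values were seen. Their levels and folds are given as deposited, and the folds are smaller after scaling. CGI_10022693 had 54.5 RPKM in DM (67 reads), 661 in DF (713 reads) and 368 in T (470 reads). Its level was 12.1-fold lower in DM than in DF (95% exact counting interval 9.43 to 15.8) and 6.75-fold lower than in T (5.22 to 8.86). After median-of-ratios scaling it stood at 73.7 RPKM in DM, 514 in DF and 350 in T. CGI_10015043 had 59.6 RPKM in DM (53 reads), 512 in DF (399 reads) and 414 in T (382 reads). These are the most abundant genes of the 23, and both had a level in DM above the medians of the abundance range.

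CGI_10006209 had 10.01 RPKM in DM (38 reads), 155 in DF (515 reads) and 89.5 in T (353 reads). Its level was 15.4-fold lower in DM than in DF (11.1 to 22.1) and 8.94-fold lower than in T (6.39 to 12.8). Of the 32 genes with at least 10 reads in DM, it had the largest difference from the nearer library, at 3.04 on the log2(RPKM + 1) scale. CGI_10021031 had 17.9 RPKM in DM (34 reads), 130 in DF (216 reads) and 138 in T (271 reads), with DF and T nearly level. CGI_10023775 had 4.51 RPKM in DM (22 reads), 51.6 in DF (221 reads) and 35.7 in T (181 reads). Its level was 11.4-fold lower in DM than in DF (7.37 to 18.6) and 7.92-fold lower than in T (5.07 to 13.0). In all 5 genes DM was low against both libraries, as their choice requires, and in 4 of them DF was above T.

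The abundant gene CGI_10003507 was not among the 23. After median-of-ratios scaling it stood at 307 RPKM in DM, 1127 in DF and 1055 in T, a difference of -1.87 from DF and -1.78 from T. CGI_10002989 was among them, at 3.84 RPKM in DM, 30.2 in DF and 43.4 in T after scaling.

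Some of the 98 genes had consecutive identifier numbers, which the rule did not use. There were 3 such pairs, named here after their values were seen. CGI_10004274 had 9.53 RPKM in DM, 70.6 in DF and 46.8 in T, and CGI_10004275 had 2.23 in DM, 33.0 in DF and 20.7 in T. CGI_10010094 had 19.2 RPKM in DM, 189 in DF and 94.8 in T, and CGI_10010095 had 7.15 in DM, 51.2 in DF and 46.7 in T. CGI_10027406 had 11.7 RPKM in DM, 91.0 in DF and 79.1 in T, and CGI_10027407 had 3.37 in DM, 17.5 in DF and 24.5 in T. The genes of a pair differed in level and in recovered coding length (510 and 654 nt in the first pair, 582 and 951 nt in the second, 207 and 1299 nt in the third). The difference T minus DF was -0.58 and -0.65 in the first pair. It was -0.99 and -0.13 in the second, and -0.20 and 0.46 in the third, so it was alike in the first pair only.

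Over all 98 genes, 49 places next to a member in number were held by a gene of the abundance range, and 6 of these (12.2%) were members themselves, against 1.62% of the range. The other 43 genes had medians of -0.99 for DM minus DF and -0.50 for DM minus T, against -0.68 and -0.44 over the range. The 6 members are the 3 pairs, each counted from both sides, so the share of 12.2% is a description only. The files do not say whether consecutive numbers stand for neighbouring genes, and reads shared between similar genes could not be examined.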

How the data were processed

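The authors deposited 1 table per library with RPKM values for 28027 identifiers, the unit being given in the deposited file names. The submitters' processing notes name TopHat with no version. For the counter, genome build and annotation, nothing is given in the sources used here. Library totals were recovered from the spacing of the deposited RPKM values, as whole numbers with coding lengths in multiples of 3 nt. Of 3 candidate sets, the one taken had recovered reads that filled the totals best while not exceeding them. All 19931 genes above 0 then had whole reads, and these summed to 98.0% of the total in DM, 97.5% in DF and 97.6% in T. A common factor of reads and length cannot be seen, so both are lower limits. The recovery and the rule were run on simulated data built from these recovered reads and lengths. Such data cannot show whether a common factor was missed in the real values. Intervals are 95% exact (Clopper-Pearson) and cover counting error only, with each read taken as separate. Whether amplified copies of a molecule were removed is not given in the sources used here. For the 98 genes, the intervals do not allow for the choice of genes by the same reads. A floor of 3 reads stands for 1.46 RPKM in DM, 1.66 in DF and 1.403 in T, for 1 kb of length. Scaling factors came from genes above 0 in all 3 libraries (median of ratios, trimmed mean) or from sums.

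With 1 library per label, no test was run. The genes and rules were chosen with earlier results of these data known. Genes were named by a rule that took the member with the highest mean RPKM and, of those with a read in DM, the member with the largest difference from the nearer library. Python 3.11.15, numpy 2.4.6, pandas 2.3.3 and scipy 1.17.1 were used.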

Additional observations from a re-analysis of the deposited data

How the results depend on the processing

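No paired analysis was possible because there is a single library for each label, with no replicate number. For the 4 counts and the 2 medians, 20 recomputed values stayed within 1.5 times the count or within the counting error of the summed reads, and 44 did not. The 2 genes named by rule kept their direction in all 20 recomputations, which their large differences fix under scalings of this size. For genes lower in DM alone (98), a pseudocount of 5 gave 25, a mean of at least 5 RPKM gave 166 and of at least 20 gave 48. A limit of 1 on the log2 scale gave 720 and a limit of 3 gave 10. Median-of-ratios scaling gave 27, trimmed-mean scaling 25 and equal sums (the 20 most abundant genes left out) 39. Median-of-ratios scaling with the counting interval, chosen after seeing the data, gave 27. DM against DF only gave 720 and DM against T only 337, because a single contrast was asked for. For genes lower in DF alone (28), limits of 1 and 3 gave 76 and 16. Holding DM and T within 0.5 gave 17, and no limit between them gave 143. The 3 scalings, in the same order, gave 60, 60 and 49, and the interval with scaling 58. For genes lower in T alone (12), a pseudocount of 5 gave 2, a mean of at least 5 RPKM 19, and limits of 1 and 3 gave 85 and 1. For genes higher in DM alone (5), a pseudocount of 5 gave 13, means of at least 5 and 20 RPKM gave 14 and 2, and limits of 1 and 3 gave 31 and 2. Holding DF and T within 0.5 gave 2 and no limit 25, the scalings gave 18, 20 and 13, and the interval with scaling 18. The median of the 98 genes for DM minus DF (-2.72) was -2.90 with a pseudocount of 0.1, -1.97 with 5, and -1.98, -1.95 and -2.25 under the scalings. For DM minus T (-2.41) it was -2.70, -1.83, -1.99, -1.97 and -2.11. Apart from settings that ask more or less of a gene by construction, the cause was not tested. The counting interval alone left 93, 28, 12 and 5 genes in the 4 counts. Depth limits the low values in DM, where 28 of the 98 genes had at most 3 recovered reads.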
